A study of Mus musculus with 12 samples.

Results

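The PGC-1 coactivators and the factors of mitochondrial biogenesis that work with them were followed at the level of mRNA in mature white adipocytes of the mouse. These were 9 genes, found by symbol among the 20295 genes of the count table: the 3 coactivators Ppargc1a, Ppargc1b and Pprc1, the estrogen-related receptors Esrra and Esrrg, the transcription factors Nrf1 and Gabpa, the mitochondrial DNA factor Tfam, and Perm1. The adipocytes came from the epididymal white fat of lean male C57/BL6J mice, were separated from other cells by floating, and were kept for 2 days in a 3D hydrogel. The labels name no modified allele, and the age of the mice is not given in the sources used here. There were 4 groups of 3 libraries each. DMSO received the vehicle, ISO received isoproterenol (an agonist of β-adrenergic receptors, which switches on lipolysis) for 3 h, Lip received lipase inhibitors, and Lip+ISO received the inhibitors and then isoproterenol. By the study's methods the inhibitors were Atglistatin, which acts on the lipase ATGL, and CAY10499, which acts on the lipase HSL. The comparisons ask how each gene responded to β-adrenergic stimulation and whether that response depended on active lipases. Floated cells stand for adipocytes as a fraction and not as single sorted cells, and the number of mice pooled per culture is not given in the sources used here.

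PGC-1 proteins do not bind DNA themselves. They are recruited by nuclear receptors such as the estrogen-related receptors (ERRs) and the PPARs and by NRF1, and they raise transcription of nuclear genes for respiratory chain proteins, fatty acid oxidation enzymes and TFAM, which packages and transcribes mitochondrial DNA. In fat, β-adrenergic signals acting through cAMP and CREB are known to induce Ppargc1a, and PGC-1α is best known there for adaptive thermogenesis. PGC-1β shares many of these targets and is known as a more constitutive regulator of mitochondrial content.

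The libraries held 22632220 to 43707557 counts, so that a count of 0 in a library allowed a level of up to 0.0678 to 0.132 CPM (counts scaled to the size of the library, with TMM factors), which covers counting error only. All 9 genes passed the filter on low counts, as did 13543 genes in all. Replicates of a group differed by far more than sampling noise, and no library was a copy of another. All 8 adipocyte markers were detected in every library, with a summed level of 23751 to 38036.5 CPM.

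ISO raised Ppargc1a more than 10-fold both with and without the lipase inhibitors, while most of the other biogenesis factors were not called. In ISO against DMSO, Ppargc1a and Esrra were called higher, at an adjusted p of 0.05 or less by edgeR without a block. The other 7 genes were not called in that fit. Of all tested genes, 12.3% were called higher and 13.9% lower in this comparison. In Lip+ISO against Lip, Ppargc1a and Nrf1 were higher and Tfam was lower, where 11.5% of all tested genes were higher and 15.8% lower. Lip+ISO was also set against ISO, and there Ppargc1b alone among the 9 was called without a block, and it was lower. The background in that comparison was 4.36% higher and 4.59% lower. In Lip against DMSO, none of the 9 was called by edgeR or by DESeq2, and 1 (Ppargc1b) had an unadjusted edgeR p under 0.05. There the background was 0.00738% higher and 0.0443% lower. The interaction asks whether the response to ISO differed with the inhibitors. Without a block it called none of the 9 by edgeR or DESeq2, and 1 (again Ppargc1b) had an unadjusted edgeR p under 0.05. The background there was 0.901% higher and 0.724% lower. With 1 or 2 genes called in a direction, these shares of 9 are not a result about the group. With the replicate number as a block, the calls in ISO against DMSO rose from 2 to 4 by adding Pprc1 and Tfam. The block also called Ppargc1b in the interaction (-1.16, edgeR adjusted p = 0.0168) and in Lip+ISO against Lip (-0.72, 0.00736). Lip+ISO against ISO gained Pprc1 (-0.36, edgeR adjusted p = 0.0194). The shares of all tested genes above are from the fit without a block and are not set against these calls. The counts come from whole cultures, so fewer cells of a type and less RNA per cell cannot be told apart.

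**Figure D1:**
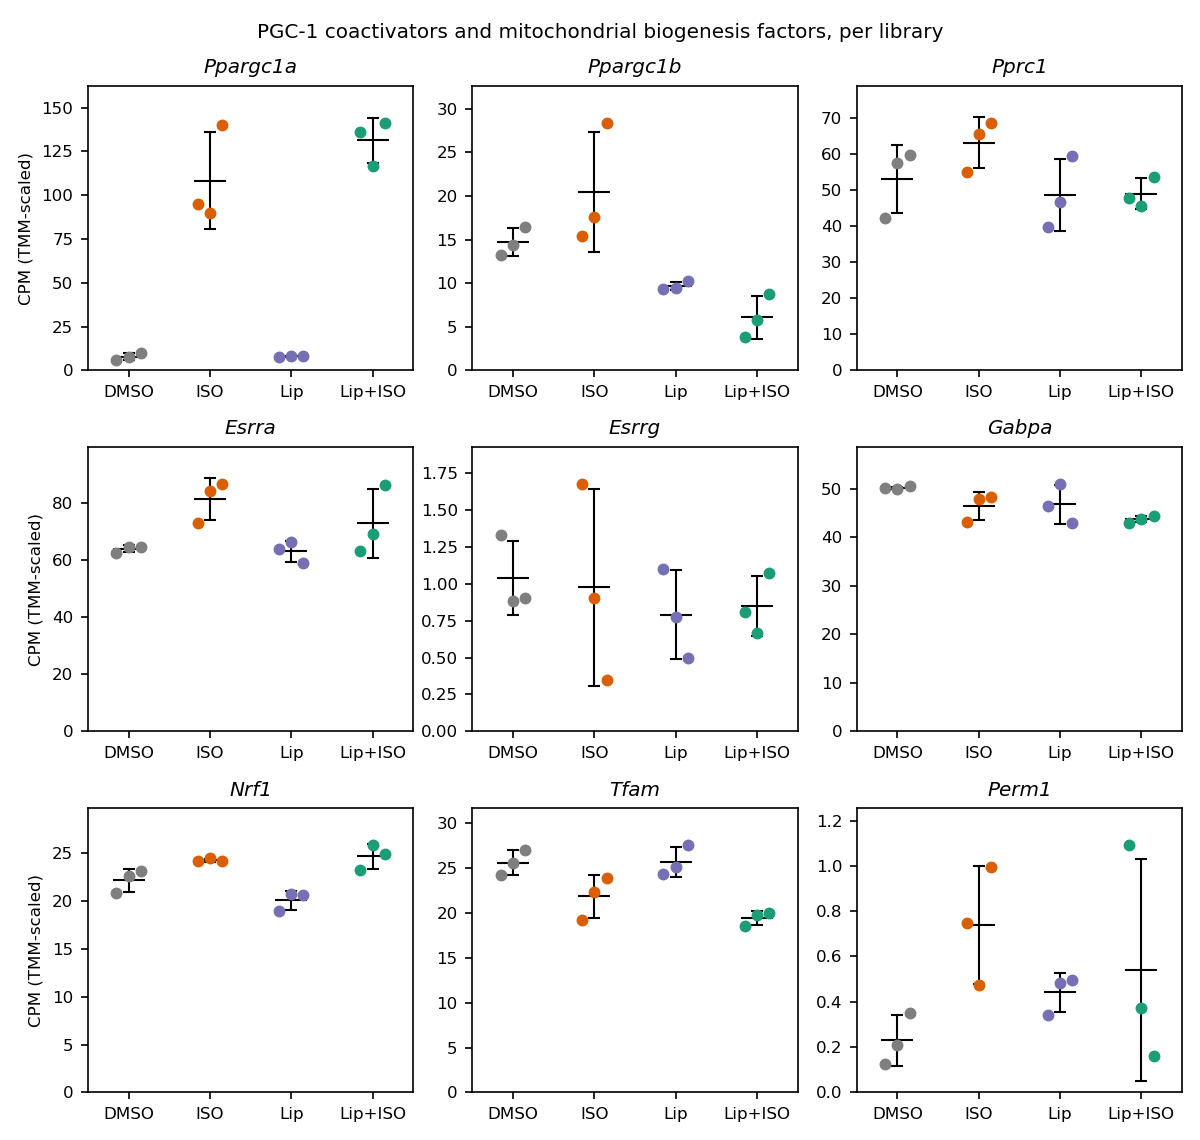
Level of each of the 9 genes in every library, in CPM scaled by TMM (y axis, from 0), by group (x axis). Points are libraries, the horizontal bar is the mean and the error bar is 1 SD (n = 3). Ppargc1a lies at 90.0 CPM or more in all 6 ISO and Lip+ISO libraries and at 9.71 CPM or less in the other 6.

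Ppargc1a (NM_008904, chr5:51845488-51945160, minus strand, mm9) encodes PGC-1α. Per kilobase of counted exons it ranked 7th of the 9 genes in DMSO and Lip and 2nd, after Esrra, in ISO and Lip+ISO. The 3 DMSO libraries held 6.03, 7.85 and 9.71 CPM, and the 3 Lip libraries held 7.52, 8.02 and 8.30 CPM. After ISO the level was 94.9, 90.0 and 140 CPM, and in Lip+ISO it was 136, 117 and 141 CPM. Every stimulated library lay far above every unstimulated one, and the ISO and Lip+ISO libraries overlapped. The gene was 13.8-fold higher in ISO than in DMSO, with a log2 fold change of 3.79 ± 0.20 (SE, n = 3 per group, adjusted p = 7.79e-08 by edgeR). With the lipases inhibited it was 16.5-fold higher, at 4.04 ± 0.20 on the log2 scale (edgeR adjusted p = 1.61e-08). By size these were the 48th and the 47th largest rises among 13543 genes. The difference between the 2 responses was 0.26 ± 0.26 on the log2 scale, with a 95% confidence interval of -0.30 to 0.81 (edgeR adjusted p = 0.722). Lip+ISO and ISO differed by 0.28 ± 0.17, with an interval of -0.09 to 0.65 (edgeR adjusted p = 0.346). Both intervals hold no difference. The first reaches from a response 0.30 smaller with inhibitors to a response 0.81 larger, on the log2 scale. The rise stayed called with every library left out in turn, at 3.56 to 3.96 without and 4.00 to 4.13 with inhibitors.

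The 250 bases before the start of Ppargc1a that the table uses are shown because they hold a full cAMP response element, the site of CREB, and this gene had the strongest response. Ppargc1a has 4 annotated transcripts with 4 starts, of which the farthest lies 13804 bp upstream. The counts are per gene and cannot tell these starts apart, so the window before the upstream start is shown too. Both are read 5′ to 3′ on the strand of the gene from the mm9 assembly, with the motif in capitals.
Ppargc1a, table start, chr5:51945161-51945410, minus strand: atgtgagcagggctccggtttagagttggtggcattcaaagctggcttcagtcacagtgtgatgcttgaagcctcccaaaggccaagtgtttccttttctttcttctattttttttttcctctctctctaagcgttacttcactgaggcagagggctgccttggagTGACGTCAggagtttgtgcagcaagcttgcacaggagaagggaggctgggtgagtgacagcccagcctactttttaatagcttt
Ppargc1a, upstream start, chr5:51958965-51959214, minus strand: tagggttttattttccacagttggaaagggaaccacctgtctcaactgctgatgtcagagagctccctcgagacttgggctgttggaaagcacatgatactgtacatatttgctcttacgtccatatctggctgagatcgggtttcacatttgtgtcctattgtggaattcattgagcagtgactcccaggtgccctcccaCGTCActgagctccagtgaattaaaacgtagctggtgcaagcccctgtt
The first window holds the full element TGACGTCA at position -84 counted from the start, which contains the shorter core TGACG once on each strand. The second holds only the shorter core, on the opposite strand at -49. On either strand, the full element was in 2.14% and the shorter core in 21.2% of such windows of all 20295 genes. These are matches of letters and no binding was measured.

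Ppargc1b (NM_133249, on chromosome 18) encodes PGC-1β. It showed another order of group means, being highest in ISO and lowest in Lip+ISO. The DMSO libraries held 13.2, 14.4 and 16.4 CPM and the ISO libraries 15.4, 17.6 and 28.4 CPM. With inhibitors alone the level was 9.34, 9.46 and 10.3 CPM, and in Lip+ISO it was 3.80, 5.74 and 8.74 CPM. DMSO and ISO overlapped, all Lip libraries lay below all DMSO libraries, and all Lip+ISO libraries lay below all Lip libraries. Lip+ISO was 3.35-fold lower than ISO, a log2 fold change of -1.75 ± 0.27 (SE, adjusted p = 0.00163 by edgeR) and the 58th largest fall among 13543 genes. The remaining comparisons of Ppargc1b did not pass the threshold in the fit without a block. The response to ISO was 0.48 ± 0.26 on the log2 scale without inhibitors (edgeR adjusted p = 0.196) and -0.67 ± 0.27 with them (edgeR adjusted p = 0.09). The 2 responses had opposite signs and differed by -1.15 ± 0.38, with a 95% confidence interval of -1.96 to -0.33, an unadjusted p of 0.0097 and an edgeR adjusted p of 0.178. With the replicate number as a block, this difference was -1.16 and was called (edgeR adjusted p = 0.0168). Inhibitors alone gave -0.60 ± 0.26, with an unadjusted edgeR p of 0.041 and an adjusted p of 1. The value with inhibitors was called under 4 alternatives, namely the replicate block (-0.72, edgeR adjusted p = 0.00736), library totals in place of TMM (-0.79, 0.047), and fits without Lip+ISO replicate 3 (-1.003, 0.0148) or without replicate 3 of all groups (-0.98, 0.0143). Leaving out libraries moved it between -1.003 and -0.43, the latter without Lip+ISO replicate 1, and moved the value without inhibitors between 0.17, without ISO replicate 3, and 0.64, without ISO replicate 1. The comparisons share libraries, since ISO stands in the first response and in Lip+ISO against ISO.

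Markers of other cells of the fat pad had their highest median levels in ISO. The summed level of 8 fibroblast and preadipocyte markers was 374 to 663 CPM in DMSO, 727 to 958 in ISO, 495 to 521 in Lip and 455 to 630 in Lip+ISO. Of these 8, 3 were called higher in ISO than in DMSO (Col1a1, Col3a1 and Pdgfra) and 3 lower in Lip+ISO than in ISO. The 8 macrophage markers summed to 48.1 to 62.3 CPM in DMSO, 104 to 156 in ISO, 51.1 to 58.4 in Lip and 65.6 to 117 in Lip+ISO, with 6 of the 7 tested called higher in ISO than in DMSO and 2 in Lip+ISO than in Lip. The 8 endothelial markers summed to 115 to 222, 270 to 486, 59.6 to 194 and 89.4 to 266 CPM in the same order of groups, with 1 called higher in each response to ISO and 1 lower in Lip+ISO than in ISO. The 7 mesothelial markers in the table summed to 27.6 to 66.1, 68.7 to 78.9, 14.8 to 96.0 and 44.3 to 60.3 CPM, with 1 called higher in each response to ISO. One macrophage marker was at 0 in DMSO replicate 2 and 1 mesothelial marker in Lip replicate 1. The adipocyte markers had a median log2 fold change of -0.20 in ISO against DMSO, where Lep alone was called, and it was lower. They had a median of 0.03 in Lip+ISO against ISO. The part of these cells in the values of Ppargc1b and Esrra was not tested.

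Pprc1 (NM_001081214, chr19:46131029-46147399, plus strand), which encodes the PGC-1-related coactivator PRC, was not called in any of the 5 comparisons without a block. It held 42.3, 57.5 and 59.6 CPM in DMSO, 55.1, 65.6 and 68.5 in ISO, 39.7, 46.6 and 59.5 in Lip, and 47.8, 45.5 and 53.7 in Lip+ISO. All neighbouring groups overlapped in the order of their means. Its responses to ISO were 0.25 ± 0.16 without and 0.01 ± 0.16 with inhibitors on the log2 scale (edgeR adjusted p = 0.262 and 0.975). The first was called when blocked by replicate (0.26, edgeR adjusted p = 0.0472). Lip+ISO against ISO gave -0.37 ± 0.16, with an unadjusted edgeR p of 0.038, an adjusted p of 0.181 and every Lip+ISO library below every ISO library. The block called this value too (-0.36, edgeR adjusted p = 0.0194), where same-numbered ISO and Lip+ISO libraries correlated at 0.102, 0.311 and 0.0373.

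The make-up of the coactivator mRNA is given as a description, without a test. Levels of the 3 genes were compared per length, as CPM per kilobase of counted exons. Ppargc1a made up 7.86% ± 0.69 (SD, n = 3) of the summed level in DMSO, 48.5% ± 3.5 in ISO, 9.46% ± 1.0 in Lip and 64.9% ± 2.2 in Lip+ISO. Ppargc1b made up 26.4% ± 2.1 in DMSO, 16.01% ± 2.0 in ISO, 20.4% ± 2.2 in Lip and 5.27% ± 1.8 in Lip+ISO. The ratio of Ppargc1a to Ppargc1b was 0.258 to 0.334 in the DMSO libraries and 0.455 to 0.479 in the Lip libraries. It reached 2.79 to 3.48 in ISO and 9.14 to 20.3 in Lip+ISO, with no overlap between any groups. The summed level of the 3 genes was 15.4 ± 2.5 CPM per kilobase in DMSO, 34.4 ± 7.1 in ISO, 13.2 ± 2.1 in Lip and 31.3 ± 3.1 in Lip+ISO.

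**Figure D2:**
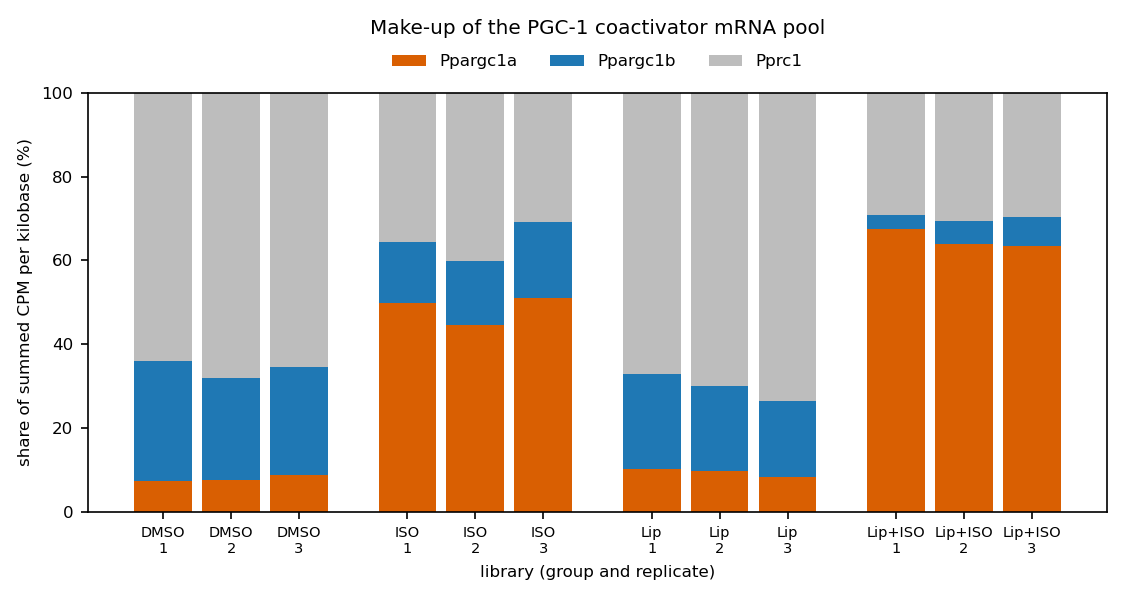
Share of each coactivator gene in the summed level of Ppargc1a, Ppargc1b and Pprc1 (y axis, percent of CPM per kilobase of counted exons), with 1 stacked bar per library (x axis, group and replicate). Ppargc1a takes 44.5 to 51.0% in ISO and 63.4 to 67.5% in Lip+ISO, and Ppargc1b takes 3.33 to 6.93% in Lip+ISO.

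Esrra (NM_007953, chr19:6985467-6996298, minus strand) encodes ERRα, the nuclear receptor through which PGC-1α reaches many genes of oxidative metabolism, and was the most abundant of the 9 in every group, at means of 28.8 to 37.1 CPM per kilobase. It held 62.4, 64.6 and 64.6 CPM in DMSO and 72.9, 84.2 and 86.5 in ISO, so that all ISO libraries were higher. Lip libraries held 63.9, 66.3 and 59.1 CPM, and Lip+ISO libraries held 63.1, 69.1 and 86.2 CPM, which overlapped with those of Lip and of ISO. The rise in ISO was 1.27-fold, 0.35 ± 0.11 on the log2 scale (SE, adjusted p = 0.0316 by edgeR). With inhibitors it was 0.21 ± 0.11 (edgeR adjusted p = 0.19), and the difference between the 2 responses was -0.14 ± 0.15, with a 95% confidence interval of -0.47 to 0.19 (edgeR adjusted p = 0.747). The call in ISO against DMSO was lost without DMSO replicate 1 (0.33, edgeR adjusted p = 0.0982), replicate 2 (0.34, 0.0652) or replicate 3 (0.35, 0.0821), without ISO replicate 2 (0.32, 0.102) or replicate 3 (0.30, 0.107), without replicate 2 (0.32, 0.212) or 3 (0.31, 0.0741) of all groups, and with library totals in place of TMM (0.31, 0.0593). The value with inhibitors ranged from 0.022 to 0.32 with libraries left out, and was 0.083 without Lip+ISO replicate 3. The end of Esrra overlaps Trmt112 on the other strand by 50 bp, and reads there cannot be assigned.

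Esrrg (NM_001243792, chr1:189432885-190038763, plus strand) encodes ERRγ, which is known from oxidative tissues such as heart and brown fat. It was rare, with 8 to 42 counts per library. It held 1.33, 0.881 and 0.901 CPM in DMSO, 1.67, 0.905 and 0.346 in ISO, 1.099, 0.773 and 0.498 in Lip, and 0.809, 0.667 and 1.07 in Lip+ISO. All groups overlapped. The response to ISO was -0.10 ± 0.49 on the log2 scale, with a 95% confidence interval of -1.17 to 0.97 (edgeR adjusted p = 0.9). Changes of up to about that size in either direction thus stay within the interval.

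Nrf1 and Gabpa encode the nuclear respiratory factors, which bind promoters of respiratory chain genes and of Tfam. Nrf1 (NM_001164226, chr6:29997988-30103458, plus strand) held 20.8, 22.6 and 23.1 CPM in DMSO, 24.2, 24.5 and 24.2 in ISO, 18.96, 20.8 and 20.6 in Lip, and 23.2, 25.9 and 25.0 in Lip+ISO. The stimulated libraries all lay above the unstimulated ones of the same inhibitor state. Nrf1 was 1.23-fold higher in Lip+ISO than in Lip, 0.30 ± 0.08 on the log2 scale (SE, adjusted p = 0.0194 by edgeR), and 0.13 ± 0.08 higher in ISO than in DMSO (edgeR adjusted p = 0.275). The 2 responses differed by 0.17 ± 0.12 (edgeR adjusted p = 0.604). The call was lost without Lip replicate 1 (0.27, edgeR adjusted p = 0.0698), without Lip+ISO replicate 2 (0.27, 0.0616), without replicate 1 (0.31, 0.0601), 2 (0.28, 0.186) or 3 (0.31, 0.104) of all groups, or with library totals (0.18, 0.194).

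Gabpa (NM_008065, chr16:84835369-84864023, plus strand), the DNA-binding subunit of NRF2/GABP, was not called in any comparison. It held 50.1, 49.98 and 50.5 CPM in DMSO, 43.2, 47.9 and 48.4 in ISO, 46.4, 51.0 and 42.9 in Lip, and 43.0, 43.8 and 44.4 in Lip+ISO. The ISO libraries were all below the DMSO libraries, but the response was -0.11 ± 0.08 on the log2 scale (edgeR adjusted p = 0.331), with a 95% confidence interval of -0.28 to 0.06. With inhibitors it was -0.10 ± 0.08 (edgeR adjusted p = 0.426). Gabpa overlaps Atp5j on the other strand by 451 bp, so part of its reads are uncertain.

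Tfam (NM_009360, chr10:70688225-70700792, minus strand) encodes the factor that packages and transcribes mitochondrial DNA, and its called change was opposite to that of Ppargc1a. It held 24.2, 25.6 and 27.0 CPM in DMSO, 19.2, 22.4 and 23.9 in ISO, 24.3, 25.1 and 27.5 in Lip, and 18.5, 19.7 and 19.98 in Lip+ISO. No stimulated library reached the lowest unstimulated library. Tfam was 24.5% lower in Lip+ISO than in Lip, a log2 fold change of -0.40 ± 0.10 (SE, adjusted p = 0.00845 by edgeR). In ISO against DMSO it was -0.23 ± 0.10 (edgeR adjusted p = 0.108), which was called once blocked on the replicate number (-0.23, adjusted p = 0.0271 by edgeR). The 2 responses differed by -0.18 ± 0.14, with a 95% confidence interval of -0.48 to 0.13 (edgeR adjusted p = 0.643). The fall with inhibitors kept its call with any single library left out, and lost it without replicate 2 (-0.43, edgeR adjusted p = 0.0955) or replicate 3 (-0.37, 0.0617) of all groups.

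Perm1 (NM_172417, chr4:155590036-155595416, plus strand), a regulator of oxidative metabolism downstream of PGC-1 and the ERRs that is known from muscle, was the rarest of the 9 per kilobase in 3 of the 4 groups. Its counts were 4 to 27 per library. The DMSO libraries held 0.126, 0.210 and 0.352 CPM and the ISO libraries 0.749, 0.475 and 0.995 CPM, all higher. Lip held 0.344, 0.483 and 0.498 CPM, and Lip+ISO spread from 0.159 over 0.371 to 1.09 CPM, wider than any other group. The response to ISO was 1.67 ± 0.65 on the log2 scale (edgeR adjusted p = 0.0782), with a 95% confidence interval of 0.25 to 3.08. It passed the threshold without Lip+ISO replicate 1 (1.67, edgeR adjusted p = 0.0378) or replicate 3 (1.66, 0.0497). With inhibitors it was 0.28 ± 0.61 (edgeR adjusted p = 0.794), and the 2 responses differed by -1.39 ± 0.90 (edgeR adjusted p = 0.549). Of 8 skeletal muscle markers, 2 passed the filter, Acta1 and Tnnc2, and Acta1 held most of their summed level of 51.0 to 281 CPM.

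**Figure D3:**
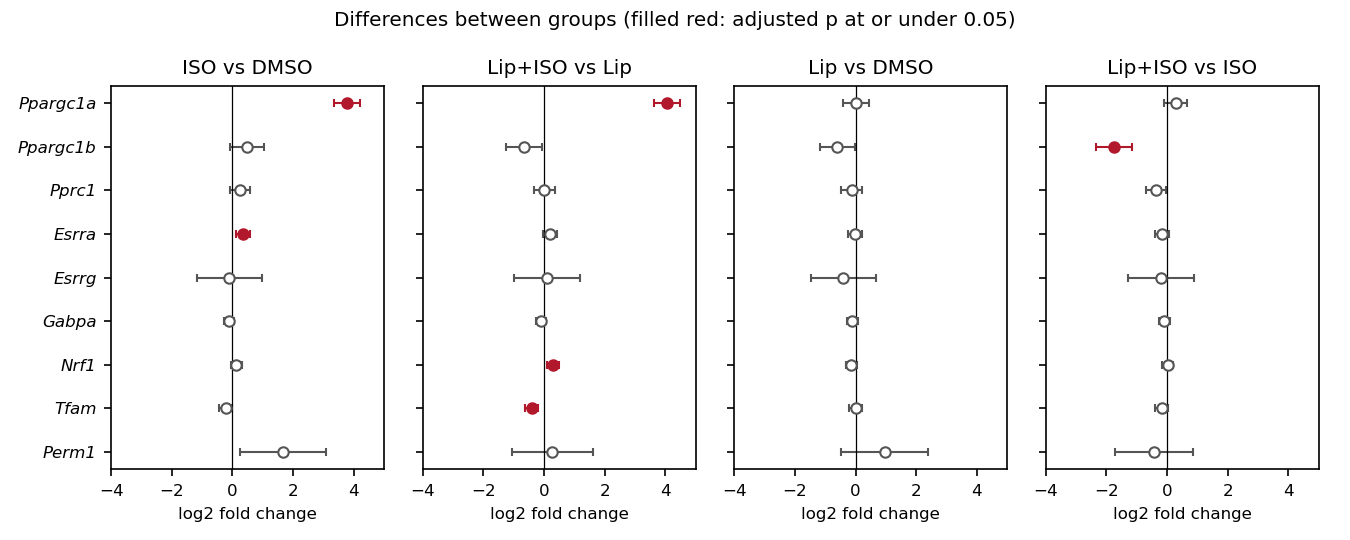
Log2 fold change of each of the 9 genes (x axis) in 4 comparisons, with 95% confidence intervals from the edgeR fit to all 12 libraries. Filled red points passed an adjusted p of 0.05. Ppargc1a stands at 3.79 and 4.04 in the responses to ISO, and Ppargc1b at -1.75 in Lip+ISO against ISO.

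The windows of 250 bases before the other starts were searched, on both strands, for the cores of the factors themselves, since members of the group are known to control each other. Short stretches around the matches are shown 5′ to 3′ on the strand of the gene, with the match in capitals.
Tfam, chr10:70700825-70700854, minus strand: gcctcctgccgcggaCCGGAAGtccgggct
Gabpa, chr16:84835261-84835290, plus strand: agtggagggtaagtgCTTCCGGgtccctca
Esrra, chr19:6996315-6996344, minus strand: accccctgttttgcaTGCGCAggccggccc
Perm1, chr4:155589819-155589848, plus strand: agttggaatccggtgTGACCTTagctaatg
The ETS core CCGGAAG, the type of site that GABPA binds, stood at position -47 from the start of Tfam and, on the opposite strand, at -93 from that of Gabpa, and was in 9.64% of the windows of all genes. The NRF1 core TGCGCA stood at -31 from the start of Esrra and was in 8.56% of windows. The ERR core AAGGTCA stood on the opposite strand at -202 from the start of Perm1 and was in 3.31% of windows. None of these letters, nor the cAMP response element, was in the windows of Ppargc1b, Pprc1, Esrrg and Nrf1, which says nothing of other starts or of more distant sites. The starts used for Tfam and Esrrg are those of the table and are not annotated as transcript starts in GENCODE.

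Other genes of the pathway were read against the shares of all tested genes, which were 12.3% higher and 13.9% lower in ISO against DMSO, 11.5% and 15.8% in Lip+ISO against Lip, and 4.36% and 4.59% in Lip+ISO against ISO. Over all genes too, lower calls thus outnumbered higher ones in both responses to ISO. These shares are from the fit without a block, so the counts with a block given below cannot be read against them. Of 23 genes that act on the PGC-1 coactivators, 2 were called higher and 7 lower in ISO against DMSO (median log2 fold change -0.19, against 0.00 over all tested genes), and 3 higher and 11 lower in Lip+ISO against Lip (median -0.37). Irf4, a transcription factor that induces Ppargc1a in thermogenic fat, was 4.49-fold higher in ISO (2.17 ± 0.35 on the log2 scale, edgeR adjusted p = 6.73e-04) and 2.62-fold higher in Lip+ISO against Lip (1.39 ± 0.34, edgeR adjusted p = 0.00813). Mef2d, a MEF2 factor known to act on the Ppargc1a promoter in muscle, rose by 0.33 ± 0.11 and by 0.87 ± 0.11 in the same order (edgeR adjusted p = 0.0471 and 8.41e-05). Crtc3, a coactivator of CREB, was lower, at -0.80 ± 0.12 and -1.03 ± 0.12 on the log2 scale, and Mapk14, the kinase p38α, at -0.48 ± 0.08 and -0.76 ± 0.08. Between Lip+ISO and ISO, 3 of the 23 were higher in the former and 5 lower. Crtc2 (-0.56 ± 0.09) and Prmt1, an arginine methyltransferase of PGC-1α (-0.67 ± 0.13), led the lower ones, and Hdac5 (0.40 ± 0.08) and Mef2d (0.53 ± 0.11) the higher ones. With the replicate number as a block, 4 of the 23 rather than 2 were higher in ISO against DMSO, and 1 was lower in Lip against DMSO, where the fit without it called none of them by edgeR.

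Among 22 partners of the coactivators, 2 were higher and 5 lower in ISO against DMSO (median -0.09), 6 higher and 8 lower in Lip+ISO against Lip (-0.02), and 6 higher and 1 lower in Lip+ISO against ISO (0.11). Gabpb1, the subunit that joins GABPA to form an active factor, rose by 0.64 ± 0.09 on the log2 scale in ISO and by 1.101 ± 0.09 in Lip+ISO against Lip (edgeR adjusted p = 2.06e-04 and 1.19e-06), while Gabpa itself was not called. Nfe2l2, the regulator of the antioxidant response, rose by 0.67 ± 0.09 and 1.11 ± 0.09. Ncoa2, a steroid receptor coactivator, was lower, at -0.74 ± 0.13 and -0.83 ± 0.13. Of the PPARs, Pparg had means of 338, 246, 330 and 360 CPM in DMSO, ISO, Lip and Lip+ISO, and its response to ISO differed with inhibitors by 0.58 ± 0.12 (edgeR adjusted p = 0.0274). Ppara had means of 19.9, 20.1, 14.4 and 7.57 CPM and was lower, at -1.40 ± 0.20 in Lip+ISO against ISO (edgeR adjusted p = 9.15e-04), an order of groups like that of Ppargc1b. With the replicate number as a block, 5 of the 22 were higher and 8 lower in ISO against DMSO.

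Beside Tfam, 22 genes of the upkeep and transcription of mitochondrial DNA were read, among them genes that supply its nucleotides. Of these, 6 were called in ISO against DMSO and 7 in Lip+ISO against Lip, all of them lower (medians -0.25 and -0.27). Of all tested genes, 13.9% and 15.8% were lower in these comparisons. The helicase gene Peo1 (also named Twnk) was lower, at -0.73 ± 0.15 and -1.003 ± 0.15 on the log2 scale (edgeR adjusted p = 0.00357 and 2.66e-04). The nucleoside kinases that feed the mitochondrial pool followed, with Tk2 at -0.55 ± 0.11 in ISO against DMSO and Dguok at -0.72 ± 0.10 in Lip+ISO against Lip.

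The 29 genes of mitochondrial protein import had 4 higher and 1 lower in ISO against DMSO (median 0.07), and 5 higher in Lip+ISO against Lip (median 0.07). Hspa9, the mitochondrial HSP70 of the import motor, rose from 690 ± 24.7 to 1010 ± 38.6 CPM (SD, n = 3) with ISO and from 661 ± 14.9 to 1178 ± 53.2 CPM with inhibitors. Tomm20, a receptor of the outer membrane, rose by 0.33 ± 0.08 on the log2 scale in ISO, Grpel1 by 0.41 ± 0.07 in Lip+ISO against Lip, and Timm21 was lower, at -0.31 ± 0.09 in ISO. Of 21 genes of fusion, fission and mitophagy, 4 were called in ISO against DMSO and 3 in Lip+ISO against Lip, all lower (medians -0.20 and -0.04), led by the deubiquitinase Usp30 (-0.52 ± 0.08 and -0.65 ± 0.08), the mitophagy receptor Bnip3 (-0.42 ± 0.12, in ISO) and the fission adaptor Mief2 (-0.58 ± 0.15, in Lip+ISO against Lip). The block on the replicate number called 7 import genes higher and 10 genes of fusion, fission and mitophagy lower in ISO against DMSO. For Lip+ISO against Lip it called 2 genes of the latter list higher and 1 import gene lower. No share of all genes under the block stands beside these counts, so they are not a result about the lists. Between Lip+ISO and ISO, edgeR called 0 genes of mitochondrial DNA upkeep, import, or fusion, fission and mitophagy, where 5, 3 and 2 had an unadjusted p under 0.05 and DESeq2 called 0, 2 and 1 (medians -0.0023, -0.07 and 0.09).

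Of 30 genes listed as known targets of PGC-1 and the ERRs, mostly enzymes, 28 were in the table and 27 were tested. In ISO against DMSO, Vegfa and Pdk4 were called higher and the other 25 were not called (median -0.01), where 12.3% of all tested genes were higher and 13.9% lower. DESeq2 called 3 of the list there and 5 in Lip+ISO against Lip. Vegfa, an angiogenic factor that is no enzyme, rose 2.22-fold, and Pdk4, the kinase that closes pyruvate dehydrogenase, rose 2.09-fold. With inhibitors, in Lip+ISO against Lip, Vegfa was 0.74 ± 0.17 higher on the log2 scale and Pdk4 was lower, at -1.32 ± 0.21 (median 0.13). Pdk4 had means of 422, 880, 134 and 53.6 CPM in DMSO, ISO, Lip and Lip+ISO and differed in its response to ISO with inhibitors by -2.38 ± 0.29 (edgeR adjusted p = 0.00171). Set against ISO, Lip+ISO had lower Pdk4 (-4.04 ± 0.23) and Vegfa (-0.66 ± 0.17), and the other 25 were not called (median 0.06). Inhibitors alone gave -1.66 ± 0.21 for Pdk4 in Lip against DMSO (edgeR adjusted p = 0.0142), the only call of any of these lists in that comparison by edgeR without a block. With the replicate number as a block, 4 of the 27 were higher in each response to ISO.

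**Figure D4:**
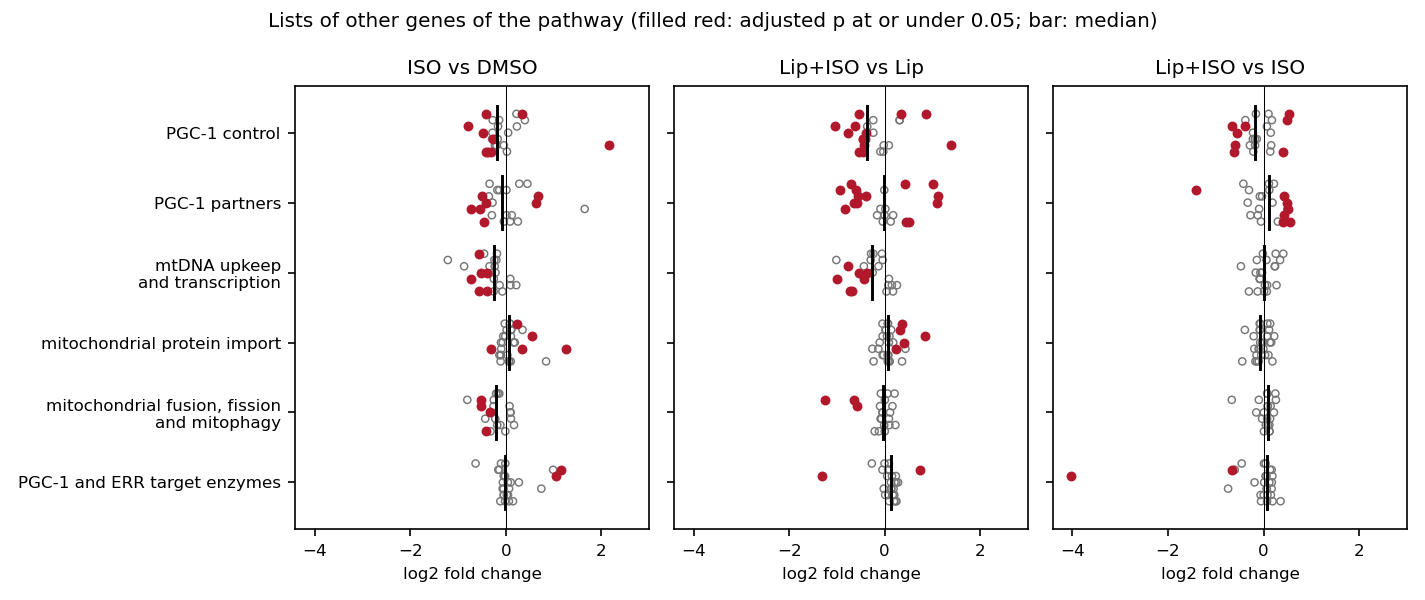
Log2 fold change (x axis) of each tested gene in 6 lists of the pathway (rows), in 3 comparisons. Each point is a gene, filled red where it passed an adjusted p of 0.05, and the black bar is the median of the list. The called genes of mitochondrial DNA upkeep all lie below 0 in both responses to ISO, and Pdk4 lies at -4.04 in Lip+ISO against ISO.

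The genes whose pattern over the 12 libraries was most like that of Ppargc1a, by Pearson correlation of log2 CPM among 9837 other genes with a mean of at least 5 CPM, were Tnfaip6 (r = 0.996), Dagla (0.992), Sik1 (0.991), Adamts9 (0.991) and Adssl1 (0.990). Tnfaip6 had means of 4.53, 381, 5.85 and 503 CPM in DMSO, ISO, Lip and Lip+ISO, and Sik1, a kinase of the CREB coactivators, had 27.8, 313, 31.1 and 401 CPM. For Esrra the closest were Ggnbp2 (0.932), Col4a2 (0.918) and Rilpl2 (0.917). All points share the same 12 libraries and the same 4 groups, so these values describe a common order of groups, with no test.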

How the data were processed

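RNA was sequenced (TruSeq2) from 12 adipocyte cultures, whose titles give the group and the replicate number. One legend of the study names SR-3420 as the stimulus of these cells, whereas the titles name ISO, which was used here. The authors aligned reads to mm9 with STAR 2.4.2a and then ran HOMER and iRNA-seq to count reads in RefSeq genes, keeping 1 read per position and read length. The deposited values are raw counts per gene, and strand is not stated. All columns of counts were used, and 0 per-sample columns were left out. The counted exon length of the table served for levels per kilobase.

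Counts were tested in R 4.3.3 with edgeR 4.0.16 (filterByExpr, TMM, quasi-likelihood F-test, two-sided, 1 mean per group over all 12 libraries), with Benjamini-Hochberg adjustment over 13543 genes. The threshold was an adjusted p of 0.05 or less, whatever the fold. Because nothing in the labels ties a culture to an animal, p-values measure the spread between these samples, which the methods describe as independent experiments. The fit was tested on simulated data. Alternatives were DESeq2 1.42.0 (size factors and Wald test), library totals, no filter, only the groups compared, a log2 fold change of at least 1, each library or replicate number left out, and a replicate block. Same-numbered libraries of 2 groups deviated together, with correlations of 0.298, 0.331 and 0.139 for DMSO and ISO, 0.192, 0.298 and 0.232 for Lip and Lip+ISO, and 0.343, 0.369 and 0.197 for DMSO and Lip, so the numbers were taken to pair these samples. The main fit has no block and leaves this pairing out, so blocked calls are given beside its calls. The rule for names took all 9 members, at most 2 called genes per pathway list, direction and comparison (smallest adjusted p), and the 5 or 3 genes most like a member. Markers and promoter matches are described beside them. The members and lists were chosen with earlier results of these data known. Table starts count from 0 and are printed from 1. Sequences are from the same assembly (NCBIM37), with starts from GENCODE vM1.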

Additional observations from a re-analysis of the deposited data

Results flagged for a closer look

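Among the 9 genes and the lists of other genes of the pathway, 2 responded differently to ISO with and without the lipase inhibitors. This was by the interaction term of the edgeR fit without a block. Pparg, which was lower in ISO than in DMSO (-0.46 on the log2 scale), had a response that was 0.58 higher with inhibitors (edgeR adjusted p = 0.0274). Pdk4 rose by 1.06 on the log2 scale with ISO and was lower, at -1.32 in Lip+ISO against Lip, a difference of -2.38 (edgeR adjusted p = 0.00171). Both belong to lists of partners and targets and neither is one of the 9 genes. Other fits called more: under the replicate block the interaction called Ppargc1b (-1.16, edgeR adjusted p = 0.0168). DESeq2 called 2 genes that act on the coactivators, 5 partners and 0 genes of mitochondrial DNA upkeep. It also called 1 import gene, 1 gene of fusion, fission and mitophagy, and 1 target.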

How the results depend on the processing

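Calls of Ppargc1a in both responses to ISO held under every alternative, and no member was called in Lip against DMSO under any. In ISO against DMSO, 2 members were called, against 1 with library totals alone, 4 with the replicate block, 1 at a log2 fold change of at least 1, and 1 to 3 with a library or replicate number left out. In Lip+ISO against Lip, 3 members were called, against 4 with the replicate block, 1 at a log2 fold change of at least 1, and 1 to 4 with a library or number left out. In Lip+ISO against ISO, 1 was called, against 2 with the replicate block (Pprc1 added, -0.36, edgeR adjusted p = 0.0194) and 0 to 1 with a library or number left out. The 0 arose without replicate 2, where Ppargc1b stood at -1.80 (edgeR adjusted p = 0.0508), with 2 members at an unadjusted p under 0.05 in the fit of all libraries. The interaction called 0, against 1 with the replicate block (Ppargc1b, -1.16, edgeR adjusted p = 0.0168) and 0 with any library or number left out. The libraries of ISO and Lip+ISO with 1 number correlated at 0.102, 0.311 and 0.0373. The last was the lowest of 18 same-numbered pairs over all groups, of which 17 were over 0.1. Pairing of ISO with Lip+ISO thus rests partly on the other groups that share the numbers. The blocked calls of this comparison and of the interaction are also given with the results. The block changed no call of a member beyond these and those given with the results. Leaving out replicate 2 or 3 in all groups also ended the calls of Tfam and of Nrf1 in Lip+ISO against Lip, where fewer samples were fitted. Nrf1 was also lost there without a filter (0.27, 0.0626) and with only the 2 groups compared (0.30, 0.0632), and Perm1 was called in ISO against DMSO with only those groups (1.67, edgeR adjusted p = 0.0488). The cause was not tested.

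Library totals moved the median of all genes to -0.12 in Lip+ISO against Lip, and changes there are relative to it. The split of all calls in that comparison went from 1562 higher and 2140 lower to 1069 and 2968, and in ISO against DMSO from 1670 and 1878 to 1365 and 2329. Signs turned only for values that were not called. With library totals these were Pprc1 (-0.11) and Esrrg (-0.0034) in Lip+ISO against Lip, Esrra in Lip against DMSO (0.016), Nrf1 in Lip+ISO against ISO (-0.013) and Gabpa in the interaction (-0.062). Without a filter they were Pprc1 in Lip+ISO against Lip (-0.012) and Tfam in Lip against DMSO (-0.00062). With a library or number left out, Esrrg ranged over -0.68 to 0.28 in ISO against DMSO, -0.34 to 0.47 in Lip+ISO against Lip, -0.78 to 0.43 in Lip+ISO against ISO and -0.53 to 0.93 in the interaction. Perm1 ranged over -0.85 to 0.81 and -1.44 to 0.27 in the comparisons of Lip+ISO with Lip and with ISO. The others were Pprc1 in Lip+ISO against Lip (-0.10 to 0.18), Nrf1 in Lip+ISO against ISO (-0.0066 to 0.073), Gabpa in the interaction (-0.038 to 0.11), and Ppargc1a (-0.14 to 0.20), Esrra (-0.055 to 0.035) and Tfam (-0.056 to 0.043) in Lip against DMSO. Esrrg and Perm1 rest on 4 to 42 counts per library, and the part of depth in their spread was not tested.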
